A study of Homo sapiens with 9 samples.

Results

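Gene expression in treated HSF-6(S9) cells was compared with that in untreated HSF-6(8) cells. HSF-6 is an established human embryonic stem cell line, and (8) and (S9) are sublines of it that the labels do not describe further. The comparison takes 6 of the 9 arrays, chosen by their titles: 3 arrays of HSF-6(S9) given butyrate and DZNep, and 3 control arrays of HSF-6(8) given neither. The other 3 arrays are HSF-6(8) given butyrate and DZNep, and their values stand beside the results as a second treated group. All groups had been passaged 11 times and grown for 6 days, per the labels, and were detached with TrypLE Express, an enzyme mix used in place of trypsin. The sources used here give no doses. No untreated HSF-6(S9) array is among those analysed here, so subline and treatment differ together between the groups compared and cannot be told apart. The labels number the arrays of a group with prime marks and do not say whether they came from separate cultures, so p-values measure only the spread between these arrays, which may be technical.

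Butyrate is a short fatty acid that blocks class I and class II histone deacetylases, so that acetyl groups build up on histones. DZNep, deazaneplanocin A, blocks AHCY, the enzyme that clears S-adenosylhomocysteine, and thereby slows methyl transfer, including that by EZH2, the Polycomb enzyme that methylates histone H3. In embryonic stem cells Polycomb and deacetylase complexes hold many developmental genes at a low level, while POU5F1, SOX2 and NANOG keep the pluripotent state.

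The measurement was signal intensity per probe set, a set of short probes for one transcript, on Affymetrix U133 Plus arrays. Array medians lay between 64.8 and 82.9, and correlations between arrays of a group between 0.945 and 0.977 on the log2 scale. The third array of each group had the highest 18S ribosomal RNA signal of its group. The 3′ probe set read 963 in the control, 850 in treated HSF-6(8) and 1517 in treated HSF-6(S9), against 385 to 542 on the others. The 5′ probe set read 1589, 805 and 3531 in the same order, against 279 to 547 on the others. Pluripotent stem cell markers were bright on all 6 arrays: the 8 measured markers summed to 134500 to 186900 on untreated HSF-6(8) and to 118000 to 210100 on treated HSF-6(S9), and 0 of them lay under 100. Of 10 fibroblast and stromal markers, included for feeder cells that a culture could hold, POSTN and LUM were under 100 on all 6 arrays, and the list summed to 10430 to 10960 and to 13350 to 14650. Summed markers were also higher in treated HSF-6(S9) for endoderm (334 to 630 and 1097 to 1418), neuroectoderm (9025 to 10860 and 14240 to 16140) and trophoblast (541 to 915 and 1523 to 2359). They overlapped for mesoderm (431 to 581 and 524 to 866), endothelium (787 to 1232 and 713 to 1381) and blood (267 to 335 and 246 to 312). The higher sums of neuroectoderm, trophoblast and the stromal list rested mostly on bright members (OTX2 and NES, GATA3 and TFAP2A, COL1A1 and COL1A2). In log2 fold change ZIC1 (-0.20), KRT7 (-0.14), THY1 (-0.97), POSTN (-0.45), PDGFRB (-0.20) and DCN (-0.19) of these lists were lower. The list medians were 0.77, 0.52 and 0.52, and for endoderm, with no lower member, 1.35. The arrays of treated HSF-6(8), which enter the estimate of the spread, ranged from 1037 to 6206 for endoderm and from 597 to 6072 for mesoderm. In RNA from whole cultures, fewer cells of a type and less RNA per cell cannot be told apart.

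Far more genes were called higher than lower in treated HSF-6(S9). A gene was called when its limma adjusted p was under 0.05, over all 54613 non-control probe sets, and its change was at least 2-fold on the log2(signal + 16) scale. Of 19775 genes, each read by its brightest single-gene probe set, 38 were called higher (0.192%) and 4 lower (0.0202%), and in all 42 the arrays of the 2 groups did not overlap. The 4 lower genes were MBD3L2, GRPR, FLT1 and PCDHB16. By probe set, 53 were called higher (0.097%) and 6 lower (0.011%), and the median log2 difference over all genes was -0.01. The called rises ran from 1.83 to 4.98 on the log2 scale and the falls from -3.56 to -1.95. Of the 19775 genes 2018 had an unadjusted p under 0.05, 1094 higher and 924 lower.

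These counts depended on the arrays and on how many probe sets were tested. Leaving out the first, the second and the third control array gave 18, 19 and 16 genes called higher, and leaving out those of HSF-6(S9) in turn gave 20, 19 and 15. The count of lower genes became 7 without the third treated HSF-6(8) array, and 3 to 5 without any other array. With only the first and second arrays 0 genes were called by limma. All 42 still differed at least 2-fold there. Their direction could not change, since their groups did not overlap on all arrays, so this is no separate support. A filter that kept probe sets above the array median on at least 3 of 9 arrays, with 1 probe set per gene, left 13504 genes. With all probe sets that pass the filter, 64 genes were called higher (0.474%) and 16 lower (0.118%). With 1 probe set per gene, 121 were called higher (0.896%) and 39 lower (0.289%). The arrays of a single group can meet this filter, so passing it is no separate support for a difference. Of the 121, 49 had no control array above its own median. Of the 39, 11 had no treated HSF-6(S9) array above its own median. This filtered fit was chosen after the data were seen. Its count of 39 lower genes became 7, 6 and 18 when the first, the second and the third control array were left out in turn. It became 19, 23 and 70 when the treated HSF-6(8) arrays were left out in the same order, and 41, 15 and 14 for those of HSF-6(S9). Its count of 121 higher genes became 61, 51 and 61 for the control arrays, 82, 86 and 171 for treated HSF-6(8), and 74, 90 and 59 for HSF-6(S9). With only the first and second arrays it called 72 higher and 26 lower, and 10 of the 39 lower genes were among these.

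**Figure D1:**
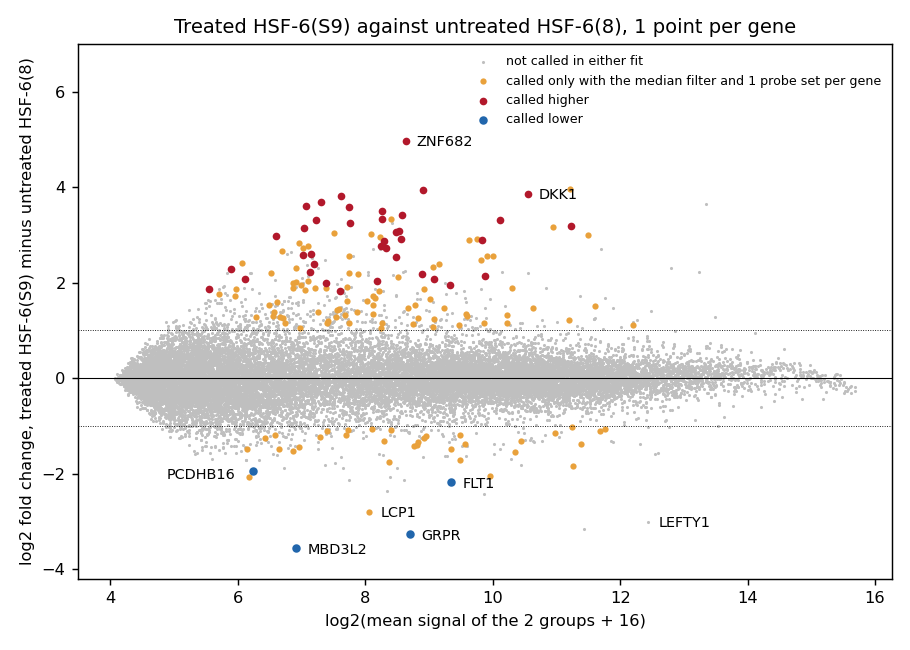
Log2 fold change of 19740 genes between treated HSF-6(S9) and untreated HSF-6(8) (vertical axis) against log2 of the mean signal of both groups with 16 added (horizontal axis). Red points are the 38 genes called higher, blue points the 4 called lower, orange points genes called only in the filtered fit, and dotted lines mark 2-fold changes. More called genes lie above than below, and LEFTY1, a gene with a large difference, was not called.

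The 4 lower genes and 2 large rises, ZNF682 and DKK1, are shown with the 250 bases before their outermost RefSeq start, from GRCh38.p14, since Polycomb complexes and DNA methylation act differently at CG-rich and CG-poor promoters. Capitals mark CG dinucleotides, and each sequence runs 5′ to 3′ on the gene's strand, given after the name.
MBD3L2, chr19:7049071-7049320, plus strand: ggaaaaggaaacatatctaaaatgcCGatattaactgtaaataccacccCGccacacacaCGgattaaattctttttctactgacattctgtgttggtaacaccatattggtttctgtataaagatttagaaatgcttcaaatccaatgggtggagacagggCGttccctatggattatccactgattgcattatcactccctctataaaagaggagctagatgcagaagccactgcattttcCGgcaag
GRPR, chrX:16123315-16123564, plus strand: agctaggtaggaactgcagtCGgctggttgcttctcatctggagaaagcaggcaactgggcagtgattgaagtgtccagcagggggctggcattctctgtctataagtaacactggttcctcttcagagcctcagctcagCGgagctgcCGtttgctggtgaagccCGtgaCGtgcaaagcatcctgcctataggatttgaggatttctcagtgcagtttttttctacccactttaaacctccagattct
FLT1, chr13:28495129-28495378, minus strand: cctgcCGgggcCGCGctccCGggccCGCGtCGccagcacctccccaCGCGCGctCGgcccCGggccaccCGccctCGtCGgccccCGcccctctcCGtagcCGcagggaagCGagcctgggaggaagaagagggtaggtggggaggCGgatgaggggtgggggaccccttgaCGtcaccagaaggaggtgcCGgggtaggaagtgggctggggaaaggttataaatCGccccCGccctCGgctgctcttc
PCDHB16, chr5:141182137-141182386, plus strand: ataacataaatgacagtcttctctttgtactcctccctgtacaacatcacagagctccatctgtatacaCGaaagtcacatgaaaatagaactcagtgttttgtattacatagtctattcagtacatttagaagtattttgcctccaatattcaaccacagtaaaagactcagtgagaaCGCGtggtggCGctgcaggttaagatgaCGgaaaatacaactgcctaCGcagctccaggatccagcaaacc
ZNF682, chr19:20039506-20039755, minus strand: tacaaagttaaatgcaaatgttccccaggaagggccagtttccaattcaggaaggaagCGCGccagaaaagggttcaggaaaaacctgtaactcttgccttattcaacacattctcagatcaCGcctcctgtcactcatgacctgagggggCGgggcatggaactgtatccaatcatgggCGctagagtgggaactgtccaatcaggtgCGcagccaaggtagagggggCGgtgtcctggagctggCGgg
DKK1, chr10:52314031-52314280, plus strand: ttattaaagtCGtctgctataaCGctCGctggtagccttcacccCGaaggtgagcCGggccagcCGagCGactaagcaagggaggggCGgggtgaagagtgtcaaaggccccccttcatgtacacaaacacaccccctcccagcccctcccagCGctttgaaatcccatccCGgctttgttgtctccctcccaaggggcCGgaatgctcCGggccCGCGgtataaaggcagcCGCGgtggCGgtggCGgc

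The windows of MBD3L2, GRPR and PCDHB16 held few CG dinucleotides, 5, 5 and 6, and that of FLT1 held 25. Of 15360 measured genes with a window, 83.1%, 80.9% and 34.9% held at least as many as GRPR, PCDHB16 and FLT1. The windows of ZNF682 and DKK1 held 8 and 18. ZNF682 has 2 RefSeq starts, and the window of its other start, not printed, held 13. For the medians each gene with several starts was read by its window with the most CG dinucleotides. Over all 15360 genes the median was 20, over the 29 called higher genes with a window 19, and over the 26 lower genes of the filtered fit with a window 18.5. The letters TATAAA stood on either strand in the windows of MBD3L2, FLT1 and DKK1, and in those of 7.79% of all genes, read the same way. These are descriptions of the letters, not of a site.

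MBD3L2 had the largest fall. It encodes a small relative of the methyl-CpG binding protein MBD3 and belongs to a cluster of near-identical copies on chromosome 19, so the probe set 1552456_a_at may also read other copies, and its value is uncertain as that of 1 gene. Its signals were 167, 184 and 271 on the untreated HSF-6(8) arrays and 4.33, 2.16 and 1.29 on the treated HSF-6(S9) arrays. Treated HSF-6(8) gave 4.57, 7.86 and 6.28. All control arrays stood clear of the 6 treated arrays, which were near background, with no treated HSF-6(S9) array above its own median. The log2 fold change was -3.56 ± 0.23 (SE, limma adjusted p = 0.000584), and it was -5.91 with 1 added and -2.01 with 64 added, so its size rests on the value added to dim signals. It was called without each of the 9 arrays in turn.

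GRPR, on chromosome X, encodes the receptor for gastrin-releasing peptide, a G protein-coupled receptor that signals through calcium and is known from smooth muscle, brain and several tumours. Its probe set 207929_at read 901, 832 and 496 on untreated HSF-6(8) and 65.8, 51.8 and 64.7 on treated HSF-6(S9). Treated HSF-6(8) lay between them at 135, 135 and 147, with no overlap among the 3 groups. The log2 fold change against the control was -3.26 ± 0.25 (limma adjusted p = 0.00141), also called without each array in turn. Against treated HSF-6(8) it was -1.02 ± 0.25, which was not called (limma adjusted p = 1.00; 0.00271 before adjustment).

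FLT1 encodes a receptor tyrosine kinase for vascular endothelial growth factor, also secreted as a soluble form that traps the ligand. Probe set 226498_at read 1002, 1075 and 1080.2 on untreated HSF-6(8), 258, 216 and 191 on treated HSF-6(S9) and 236, 243 and 249 on treated HSF-6(8). Control arrays were about evenly bright and stood clear of all 6 treated arrays, which overlapped each other. Its log2 fold change was -2.18 ± 0.19 (limma adjusted p = 0.00310) and was called without each array in turn. FLT1 has 6 probe sets, which ranged from -2.18 to 0.08. Of these, 226497_s_at was called too (-1.97, limma adjusted p = 0.0470), 222033_s_at was at -1.62 and did not pass the test (adjusted p = 0.0692), and 232809_s_at was at 0.08 from a control mean of 123.

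PCDHB16 encodes a clustered protocadherin, a cell adhesion protein known from neurons, on chromosome 5. Its probe set 232099_at read 118, 113 and 80.8 on untreated HSF-6(8), 15.9, 12.1 and 16.5 on treated HSF-6(S9) and 40.2, 29.6 and 16.9 on treated HSF-6(8). The 3 groups did not overlap, with treated HSF-6(S9) the lowest. It changed by -1.95 ± 0.25 on the log2 scale (limma adjusted p = 0.0268). This call was the least stable of the 4: it held only without the first or the third treated HSF-6(8) array, and the adjusted p over the 9 fits ran from 0.0275 to 0.143. With 1 added it was not called (limma adjusted p = 0.0585). Nor was it called in a fit of only the 6 arrays compared.

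**Figure D2:**
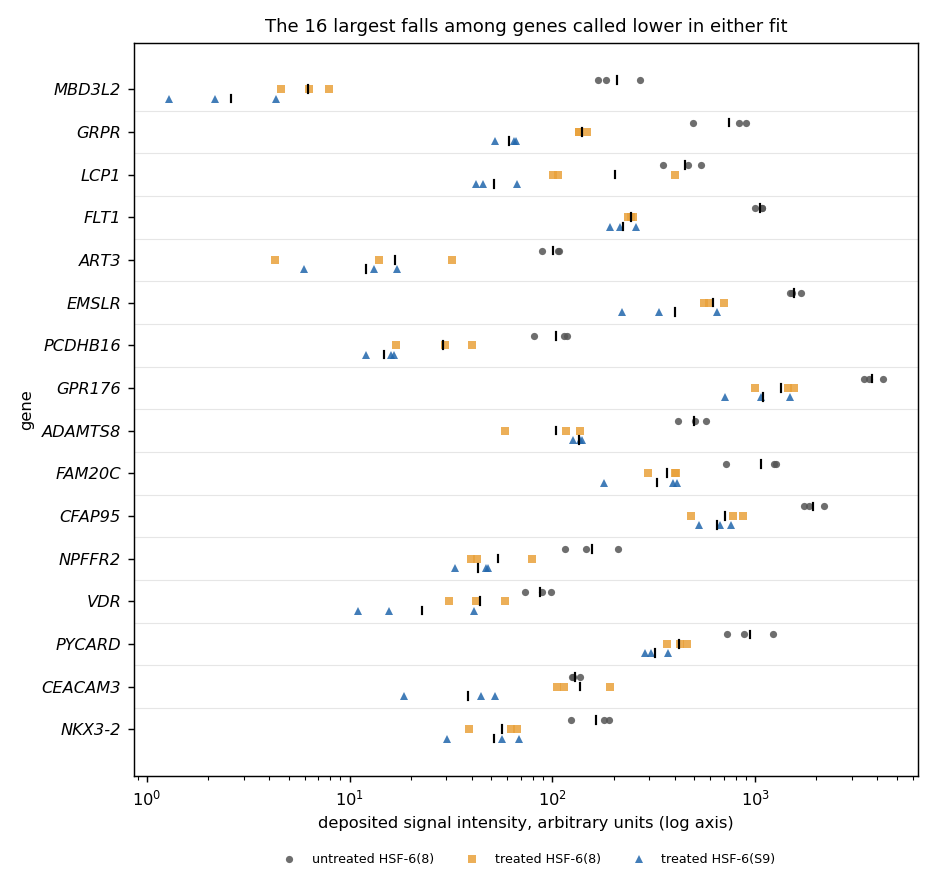
Deposited signal intensity on each array (points, log axis) for the 16 genes with the largest falls among those called lower in either fit; circles are untreated HSF-6(8), squares treated HSF-6(8), triangles treated HSF-6(S9), and short bars the mean of 3 arrays. The control circles lie to the right of the triangles for every gene drawn, while the squares of LCP1 and CEACAM3 reach the control range.

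The further lower genes of the filtered fit covered several functions, and most of its 39 are described here. Beyond the 4 above, log2 fold changes ran from -2.80 to -1.02, with control means between 86.8 and 4697. Of 38 of these genes, 5 were called in all 9 filtered fits that left out 1 array: the 4 above and SOX8. Another 9 were called in 1 of these fits only: NKX3-2, TOX, RASGRF2, FAM20C, COL14A1, AQP11, TRIM22, PDZD4 and CEACAM3. Of the 38, 14 were called in at least 5. Over all probe sets none of the further genes was called. There the limma adjusted p of those named ran from 0.0663 (ART3) to 0.204 (TRIM22). Since 16 was added, the sizes are understated for the dim ones. Of the 38 genes, 20 had several probe sets, and in 5 of these at least 1 had a difference of the other sign. Some of the further probe sets were dim.

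SOX8, a transcription factor gene of the neural crest and its glia, read 686, 589 and 562 on untreated HSF-6(8), 260.4, 235 and 169 on treated HSF-6(S9) and 374, 414 and 349 on treated HSF-6(8). The 3 groups did not overlap, and treated HSF-6(S9) was the lowest. Its log2 fold change was -1.42 ± 0.19 (filtered limma adjusted p = 0.00966; 0.0692 over all probe sets). Among other transcription regulators, NKX3-2, a repressor known from skeletal patterning, went from 164 ± 35.4 to 51.7 ± 19.8 (mean ± SD, n = 3; filtered limma adjusted p = 0.0425). VDR, the vitamin D receptor, went from 86.8 ± 12.5 to 22.6 ± 16.3 (adjusted p = 0.0473), and TOX, an HMG-box protein of T cell development, from 1980.2 ± 461 to 781 ± 185 (adjusted p = 0.0485). The other probe sets of VDR ran from -0.92 to -0.32, and the other of TOX was at -0.38. VDR and NKX3-2 were dim in treated HSF-6(S9). EMSLR, a long noncoding RNA gene, read 1481, 1683 and 1514 on untreated HSF-6(8) and 650.3, 337 and 221 on treated HSF-6(S9) (log2 fold change -2.04 ± 0.32, filtered limma adjusted p = 0.0198).

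Of 26 actin cytoskeleton and smooth muscle genes in the filtered fit, 2 were called lower, LCP1 and MYL9, and 0 higher. Over all 13504 genes of that fit 0.289% were called lower and 0.896% higher. LCP1, which encodes the actin-bundling protein L-plastin, read 465, 351 and 539.5 on untreated HSF-6(8) and 45.3, 41.7 and 66.9 on treated HSF-6(S9), where no array passed its own median. Treated HSF-6(8) read 100.4, 107 and 401, so the third array of that group reached the control range. It changed by -2.80 ± 0.44 on the log2 scale (filtered limma adjusted p = 0.0198; 0.0879 over all probe sets). MYL9, a regulatory light chain of smooth muscle myosin, read 5238, 4457 and 4396 on untreated HSF-6(8) and 2247, 2247 and 2219 on treated HSF-6(S9), a tight difference of -1.06 ± 0.17 (filtered limma adjusted p = 0.0217). CAVIN3, a coat protein of caveolae that is not among those genes, went from 1066 ± 14.9 to 409 ± 115 (adjusted p = 0.0227).

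Receptors and signalling genes made up another share of the lower calls. GPR176, an orphan G protein-coupled receptor, read 3657, 4258 and 3433 on untreated HSF-6(8), 1490.0, 1072 and 706 on treated HSF-6(S9) and 1451, 1559 and 993 on treated HSF-6(8). Its control arrays were more than 2-fold above every treated array, with a log2 fold change of -1.84 ± 0.28 (filtered limma adjusted p = 0.0169). NPFFR2, a receptor for neuropeptide FF, went from 157 ± 48.7 to 42.8 ± 8.60 (adjusted p = 0.0309). RASGRF2, which activates Ras and Rac, went from 275 ± 63.2 to 110.1 ± 3.30 (adjusted p = 0.0470), and SYNJ2, a phosphatase of inositol lipids, from 632 ± 40.5 to 242 ± 41.9 (adjusted p = 0.0141). The 7 SYNJ2 probe sets ranged from -1.39 to 0.83, so they did not all read alike.

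Secreted, membrane and matrix genes were also on the list. ADAMTS8, a secreted metalloprotease, read 573, 504 and 416 on untreated HSF-6(8) and 137, 141 and 126 on treated HSF-6(S9) (log2 fold change -1.76 ± 0.26, filtered limma adjusted p = 0.0160). Its 3 probe sets lay close together, from -1.76 to -1.67. FAM20C, a kinase that phosphorylates secreted proteins, went from 1072 ± 307 to 328 ± 129 (adjusted p = 0.0477), and COL14A1, a collagen that binds fibrils, from 116 ± 21.4 to 42.5 ± 12.2 (adjusted p = 0.0384). The other probe sets of FAM20C ran from -0.70 to -0.27, and those of COL14A1 from -0.58 to 0.17. HS3ST2, a heparan sulfate sulfotransferase, went from 106 ± 15.5 to 35.2 ± 8.05 (adjusted p = 0.0251). Of membrane proteins, GPM6B, a proteolipid of neural cells on chromosome X, went from 3856 ± 873 to 1467 ± 277 (adjusted p = 0.0261). NLGN4X, a synaptic adhesion protein on chromosome X, went from 4461 ± 436 to 2098 ± 475 (adjusted p = 0.0412), and AQP11, a water channel, from 356 ± 18.3 to 163 ± 32.6 (adjusted p = 0.0426). ART3, an ADP-ribosyltransferase family member on the cell surface, went from 101 ± 10.3 to 12.1 ± 5.64 (adjusted p = 0.0136).

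Single genes of other functions were called as well, which says nothing of those functions as groups. PYCARD, the adaptor of inflammasomes, read 1221, 880.3 and 726 on untreated HSF-6(8) and 306, 373 and 287 on treated HSF-6(S9) (log2 fold change -1.48 ± 0.22, filtered limma adjusted p = 0.0144). TRIM22, an interferon-induced antiviral gene, went from 3226 ± 606 to 1588 ± 305 (adjusted p = 0.0485). MOCOS, which activates the molybdenum cofactor, read 404, 461 and 424 on untreated HSF-6(8) and 177, 191 and 127 on treated HSF-6(S9), a difference of -1.31 ± 0.19 (adjusted p = 0.0134). Among lipid genes, PCYT1B, of phosphatidylcholine synthesis, went from 633 ± 32.3 to 234 ± 58.1 (adjusted p = 0.0264), FAR2, a fatty acyl-CoA reductase, from 977 ± 140.4 to 420.2 ± 62.9 (adjusted p = 0.0167), and OSBPL10, of the oxysterol-binding family, from 2754 ± 155 to 1254 ± 321 (adjusted p = 0.0368). The other probe sets of FAR2 were at -0.68 and -0.01, and those of OSBPL10 ran from -0.69 to -0.08. TYSND1, a peroxisomal protease, went from 664 ± 93.0 to 276 ± 77.9 (adjusted p = 0.0357), while its other probe sets ran from -0.39 to 0.06. CFAP95 and CCDC78, genes of cilia and centrioles, went from 1921 ± 231 to 651 ± 116 (adjusted p = 0.0197) and from 446 ± 93.2 to 199 ± 22.4 (adjusted p = 0.0412). PDZD4 (-1.22) and FAM110C (-1.09) completed the calls of this kind, with filtered limma adjusted p of 0.0374 and 0.0357.

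For 2 lower genes of the filtered fit, CEACAM3 and LOC101928343, the treated HSF-6(8) arrays lay near the control. CEACAM3, a granulocyte receptor for bacteria, read 124, 137 and 127 on untreated HSF-6(8), 114, 106 and 193 on treated HSF-6(8) and 52.0, 18.6 and 44.4 on treated HSF-6(S9). LOC101928343, a gene without a symbol, read 227, 201 and 210.4 in the control, 172, 176 and 214 in treated HSF-6(8) and 108, 73.1 and 93.1 in treated HSF-6(S9). In both genes treated HSF-6(S9) stood below all other arrays and the other 2 groups overlapped. Against the control the filtered limma adjusted p were 0.0467 and 0.0201, and against treated HSF-6(8) the differences of -1.51 ± 0.31 and -0.93 ± 0.21 were not called (limma adjusted p = 1.00 in each). The 3 CEACAM3 probe sets ranged from -1.48 to 0.61. These 2 genes were singled out after their values were seen.

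Across the gene lists, lower members were counted without a test as those at least 2-fold lower whose arrays did not overlap, which held for 266 of 19775 genes (1.35%), against 471 higher (2.38%). The lower count became 412, 471 and 545 without the second control, the third control and the first HSF-6(S9) array, beside 609, 528 and 624 higher, so the excess of higher genes was smaller there. Of 27 measured genes of actin cytoskeleton and smooth muscle, 6 were lower (22.2%) and 4 higher (14.8%), with a median of -0.23. In this list 15 members were below 0 and 12 above. Its median was -0.12, 0.05 and -0.30 on the first, the second and the third HSF-6(S9) array. Beside LCP1 and MYL9 the lower members were 4 genes of which none was called in either fit. ACTG2, the smooth muscle gamma actin, read 1070.4, 1370.4 and 2261 on untreated HSF-6(8) and 260.2, 213 and 336 on treated HSF-6(S9) (log2 fold change -2.42 ± 0.59, limma adjusted p = 0.247). TAGLN, an actin-binding protein of smooth muscle, read 6233, 5799 and 10038 in the control and 2349, 2619 and 3344 in treated HSF-6(S9) (-1.37, limma adjusted p = 0.588). ACTA1 and ACTC1, the skeletal and cardiac actins, were at -1.64 and -1.33. The third treated HSF-6(8) array stood above the other 2 of its group in these 4 genes (2168, 2098 and 12908 for TAGLN), and it enters the shared estimate of the spread. The higher members, with 0 called in either fit, were led by TNNI1 (1.48) and MYL4 (1.28), of striated muscle.

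Of 51 measured G protein-coupled receptor and ligand genes, 6 were lower (11.8%) and 2 higher (3.92%), with a median of -0.04, or -0.28 with the 75th percentile filter. Over all genes 1.35% were lower and 2.38% higher. Beside GRPR and GPR176 the lower members were LPAR6, a lysophosphatidic acid receptor (209, 212 and 298 on untreated HSF-6(8) and 32.7, 58.3 and 84.9 on treated HSF-6(S9), log2 fold change -1.82), the galanin receptor GALR2 (-1.69), the serotonin receptor HTR7 (-1.64) and the peptide galanin, GAL. GAL was bright, at 9319, 8153 and 8886 on untreated HSF-6(8) and 4664, 3082 and 1718 on treated HSF-6(S9), but treated HSF-6(8) ranged from 3312 to 14760 and the difference of -1.58 ± 0.53 was not called (limma adjusted p = 0.419). ENPP2, on the same list, makes lysophosphatidic acid and was called higher (60.4, 63.8 and 52.4 on untreated HSF-6(8) and 459, 500.4 and 651 on treated HSF-6(S9), 2.87 ± 0.22, limma adjusted p = 0.00139).

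In the Nodal list of 21 measured genes, 2 were lower (9.52%) and 2 higher (9.52%), with 0 called, against 1.35% and 2.38% of all genes. LEFTY1, a secreted Nodal inhibitor and a bright gene of pluripotent cells, read 11324, 9819 and 8256 on untreated HSF-6(8) and 1401, 861 and 1428 on treated HSF-6(S9). Treated HSF-6(8) read 1382, 833 and 8231, so the third array of that group lay just under the lowest control array. Its log2 fold change of -3.0 ± 0.69 was not called (limma adjusted p = 0.216), and was called without that array (limma adjusted p = 0.0153). The ligand NODAL read 2177, 2053 and 1946 on untreated HSF-6(8) and 777, 875 and 823 on treated HSF-6(S9) (-1.30 ± 0.52, limma adjusted p = 0.534). For NODAL too the third treated HSF-6(8) array stood above the other 2 of its group. That array enters the shared estimate of the spread, so this SE is not that of the 6 compared arrays alone. FST, which encodes the activin inhibitor follistatin, was higher at 1.07 ± 0.32 (adjusted p = 0.339), as was CFC1 at 1.17, a co-receptor gene with a near-identical copy.

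Other lists had 2 lower members each, beside 1.35% of all genes lower and 2.38% higher, and most of these lists had as many or more higher members. Neural crest had ETS1 and SOX8 lower (10% of 20) against 6 higher (30%), with a median of 0.62. Neuron structure had GABRA5 and NLGN4X lower (6.06% of 33) against 3 higher (9.09%), and laminins, integrins and matrix glycoproteins had SPP1 and GPC4 lower (5.71% of 35) against 4 higher (11.4%). Cytokines had TNFSF11 and SOCS2 lower (4.88% of 41) against 3 higher (7.32%). Solute carriers had 2 lower (4.88% of 41) and 1 higher (2.44%), and fatty acid oxidation had ACSM3 and CPT1A lower (7.14% of 28) and 0 higher. CPT1A, which carries fatty acids into mitochondria, read 1213, 1061 and 1134 on untreated HSF-6(8) and 575, 729 and 298 on treated HSF-6(S9) (-1.15, limma adjusted p = 0.458). ACSM3, a medium-chain acyl-CoA synthetase of the kind that activates butyrate, read 302, 273 and 122 in the control and 76.9, 112 and 69.9 in treated HSF-6(S9) (-1.21, adjusted p = 0.414). SPP1, osteopontin, read 715, 693 and 4743 in the control and 476, 345 and 397 in treated HSF-6(S9), and the third control array stood far above the others (-1.69, adjusted p = 0.632). DAZL, an RNA-binding protein of germ cells, read 378, 471 and 781 in the control and 182, 57.4 and 197 in treated HSF-6(S9) (-1.88, adjusted p = 0.204), the 1 lower member among 38 germline genes, of which 4 were higher (10.5%). None of the genes in this paragraph but SOX8 and NLGN4X was called in either fit.

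**Figure D3:**
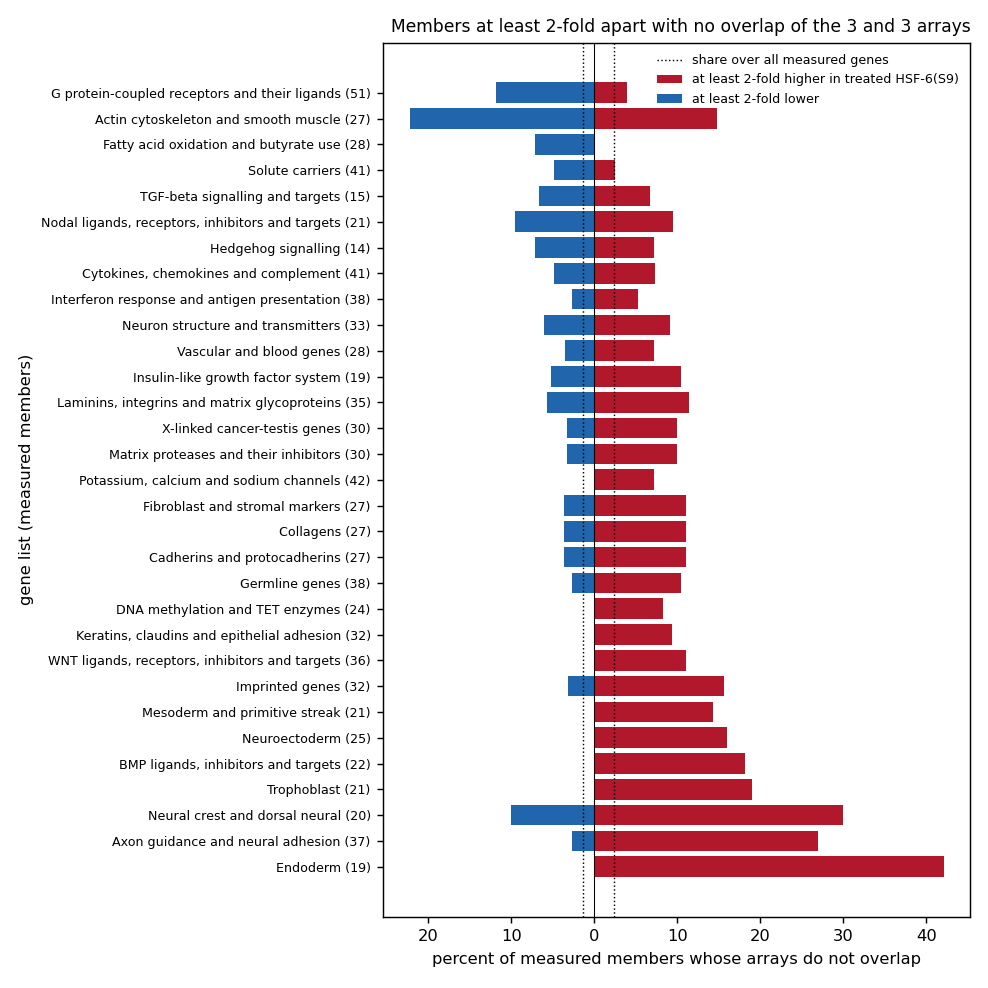
Percent of the measured members of each gene list that were at least 2-fold lower (blue, to the left) or higher (red, to the right) in treated HSF-6(S9) with no overlap of the 3 and 3 arrays, for lists with at least 2 such members; dotted lines mark the shares over all measured genes, 1.35% and 2.38%. The longest blue bar is that of actin cytoskeleton and smooth muscle (22.2%), and the longest red bar that of endoderm (42.1%).

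On the higher side, ZNF682, a KRAB zinc finger gene on chromosome 19, had the largest change. It read 10.9, 3.99 and 7.12 on untreated HSF-6(8), 575, 557 and 1129.8 on treated HSF-6(S9) and 661, 1025 and 666 on treated HSF-6(8), with control arrays near background and all treated arrays bright. The log2 fold change was 4.98 ± 0.32 (limma adjusted p = 0.000584), and 6.51 with 1 added. ZNF662 (3.69 ± 0.44) and ZNF626 (3.59 ± 0.34) were among the 10 largest rises, and ZNF677 was called too. Of 425 measured genes with a ZNF symbol and number, 4 were called higher and 0 lower, against 0.192% and 0.0202% of all genes. Of the 425, 15 were at least 2-fold higher without overlap (3.53%, near the 2.38% of all genes) and 2 lower, ZNF559 and ZNF829 (0.471%). In 10 of the 38 rises the control mean was under 16 and in 19 it was under 50, so their sizes depend on the value added.

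Called rises included DKK1, 3 members of the neuron list and NNAT. DKK1, a secreted WNT inhibitor, read 209, 197 and 123 on untreated HSF-6(8), 2752, 2122 and 3464 on treated HSF-6(S9) and 2906, 2870.0 and 3736 on treated HSF-6(8). Control arrays were well above background, and the log2 fold change was 3.86 ± 0.27 (limma adjusted p = 0.000917), or 3.56 with 64 added. DKK1 was the 1 called member of 36 WNT genes, of which 4 were higher without overlap (11.1%) and 0 lower. Over all genes 2.38% were higher without overlap and 1.35% lower. Of 33 neuron genes, 3 were called: GAD1, which makes the transmitter GABA (66.6, 60.2 and 55.0 in the control and 780.4, 470.4 and 680.2 in treated HSF-6(S9), 3.08 ± 0.28, limma adjusted p = 0.00319), and the neurofilaments NEFL (2.73 ± 0.27) and NEFM (2.60 ± 0.33). Over all genes 0.192% were called higher. The neuron list as a whole had a median of -0.07, with 17 of 33 members below 0 and 16 above. NNAT, an imprinted gene of neural development, read 43.3, 32.5 and 41.6 on untreated HSF-6(8) and 698, 566 and 1411 on treated HSF-6(S9) (3.94 ± 0.33, limma adjusted p = 0.00210). LGI1, a secreted synaptic protein, was called at 3.42 ± 0.49 but in 0 of the 9 fits that left out 1 array.

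BEX5 and TCEAL2, related small genes on chromosome X, were both among the 10 largest rises. BEX5 read 30.5, 33.6 and 36.4 on untreated HSF-6(8) and 544, 504 and 600.5 on treated HSF-6(S9) (3.51 ± 0.20, limma adjusted p = 0.000584), and TCEAL2 was at 3.33 ± 0.29. Of 696 measured genes on chromosome X, 4 were called higher (BEX5, TCEAL2, TCEAL7 and MAGEA8) and 1 lower (GRPR), against 0.192% and 0.0202% of all genes. MAGEA8, a cancer-testis gene, read 6.44, 4.61 and 22.7 in the control and 219, 278 and 162 in treated HSF-6(S9) (3.14 ± 0.31); genes of this family share sequence, so its value is uncertain. GPAT2, a germline acyltransferase tied to piRNA formation, read 10.7, 13.3 and 5.13 in the control and 249.9, 411 and 396 in treated HSF-6(S9) (3.82 ± 0.26, limma adjusted p = 0.000749). ASTE1 was called at 3.60 ± 0.31 from control signals of 2.23, 5.26 and 2.42.

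Other called list members were CST1, a secreted cystatin (582, 467 and 272 in the control and 4405, 6448 and 2151 in treated HSF-6(S9), 3.18 ± 0.41), and CBR1, a carbonyl reductase (2.97 ± 0.38). The iron exporter SLC40A1 (2.22 ± 0.30), the histone variant MACROH2A2 (2.15 ± 0.28) and the microfibril gene FBN2 (2.08 ± 0.27) were called too. GATA3, a transcription factor of trophoblast, read 179, 126 and 154 on untreated HSF-6(8) and 684, 631 and 977 on treated HSF-6(S9) (2.19 ± 0.24, limma adjusted p = 0.0127), and was the 1 called of 21 trophoblast genes. FLRT3, a membrane adhesion protein, was the 1 called of 19 endoderm genes (2.90 ± 0.35). Over all genes 0.192% were called higher, 2.38% were higher without overlap and 1.35% lower. Of the 19 endoderm genes, 8 were higher without overlap (42.1%) and 0 lower, with a median of 1.05, or 0.56 with 64 added. Among them, APOA2 read 105, 110.2 and 141 in the control and 395, 393 and 449 in treated HSF-6(S9), and GATA6, a regulator of primitive endoderm, 74.8, 59.9 and 80.0 in the control and 276, 289.5 and 327 in treated HSF-6(S9). Both were higher on the third treated HSF-6(8) array than on any HSF-6(S9) array (281, 471 and 2541 on treated HSF-6(8) for GATA6). Of 37 axon guidance genes 10 were higher (27.0%, against 2.38% of all genes) and 1 lower, with 0 called over all probe sets and 4 in the filtered fit, among them the ephrin receptor EPHA4 (2.33 ± 0.34, filtered limma adjusted p = 0.0144). The median of this list against the control was 0.24, 0.15 and 1.14 on the first, the second and the third HSF-6(S9) array, so the third stood apart, the array that also had the highest 18S signal. The part of that array's 18S signal in the result was not tested. The summed endoderm and trophoblast markers given above include higher members of these lists. For endoderm these are SOX17, GATA4, FOXA2, GATA6 and TTR, and for trophoblast TFAP2A and GATA3. The sums are therefore not a separate observation. The part of the endoderm, neuroectoderm and trophoblast markers in the result was not tested.

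The other called rises lay outside the lists and were named after their values were seen. WLS, which carries WNT proteins to the cell surface, read 225, 247 and 98.1 on untreated HSF-6(8) and 1706, 1405 and 2867 on treated HSF-6(S9) (3.31 ± 0.37), and RSPO3, which strengthens WNT signals, was at 2.40 ± 0.32. SYT11, a synaptotagmin of vesicle traffic, was at 1.83 ± 0.21, the small heat shock gene HSPB2 at 2.58 ± 0.31, and PRSS21, a serine protease of testis, at 2.78 ± 0.30. TCL1A, a coactivator of the kinase AKT, read 89.6, 145 and 69.2 in the control and 460.3, 458 and 434 in treated HSF-6(S9) (2.05 ± 0.25). DENND2D, an exchange factor of Rab GTPases (1.87), CR1L, a complement receptor relative (2.28), and SDCCAG8, of the centrosome (1.96), completed those with a known role. RSPO3, LGI1, CEBPZOS and LINC02582 were called in 0 of the 9 fits that left out 1 array. Of the 38 rises, 18 had several probe sets, and in 6 of these 1 probe set had a difference of the other sign.

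**Figure D4:**
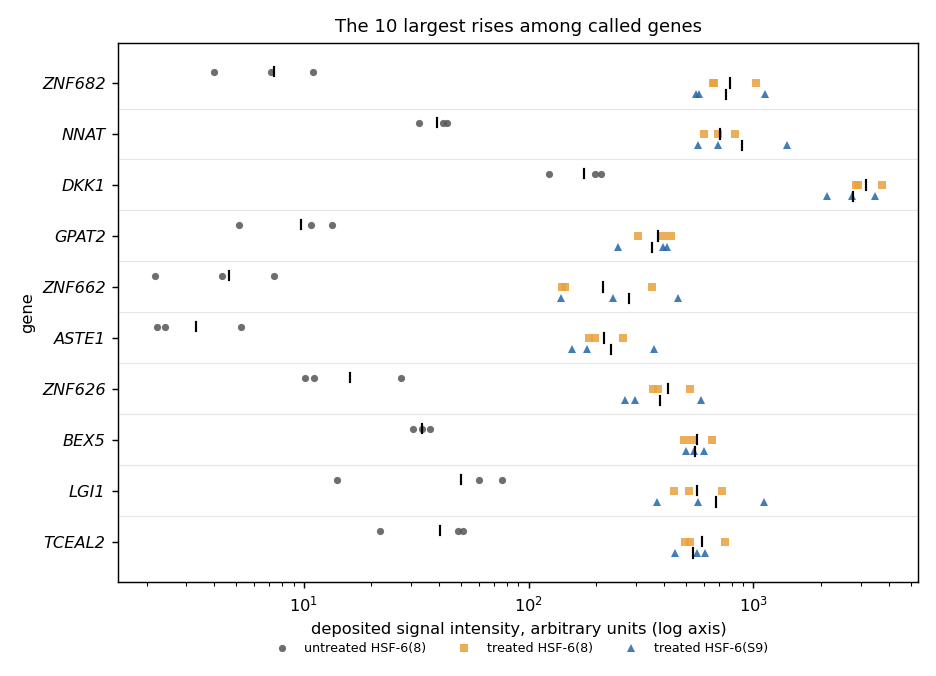
Deposited signal intensity on each array (points, log axis) for the 10 largest rises among called genes; circles are untreated HSF-6(8), squares treated HSF-6(8), triangles treated HSF-6(S9), and short bars the mean of 3 arrays. All control circles lie to the left of the treated points, and squares and triangles overlap for every gene drawn.

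HDAC1, AHCY and EZH2, enzymes that the compounds act on directly or, for EZH2, through AHCY, were not called in either direction. HDAC1, a target of butyrate, read 9679, 9021 and 7101 on untreated HSF-6(8) and 9780.3, 14011 and 9599 on treated HSF-6(S9) (0.36 ± 0.23, limma adjusted p = 0.745). AHCY, the target of DZNep, read 7403, 6830.5 and 6232 in the control and 8260.3, 13744 and 8338 in treated HSF-6(S9), a difference of 0.53 ± 0.25 (limma adjusted p = 0.608), with no overlap. EZH2 mRNA read 1162, 1015 and 1609 in the control and 1370.1, 1213 and 1949 in treated HSF-6(S9) (0.25 ± 0.33, adjusted p = 0.895); the arrays measure no protein. No member was called among 32 histone deacetylases, sirtuins and corepressors (median 0.12), 47 histone lysine methyltransferases and demethylases (-0.01) or 33 Polycomb genes (0.03). The filtered fit called 1 Polycomb gene higher, ASXL1 (1.25 ± 0.24, adjusted p = 0.0472).

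Of 24 measured pluripotency genes 0 were called, and 1, SALL1, was higher without overlap (1.18 ± 0.38, limma adjusted p = 0.396). The list had a median of -0.21, against -0.01 over all genes, with 16 members below 0 and 8 above. On the first, the second and the third HSF-6(S9) array the median was -0.11, 0.27 and -0.50, so its sign differed between arrays. NANOG read 8647, 9070.4 and 8598 on untreated HSF-6(8) and 6145, 6503 and 4306 on treated HSF-6(S9), without overlap but under 2-fold (-0.66 ± 0.27, limma adjusted p = 0.553). SOX2 (27005, 23263 and 20145 in the control and 20649, 37824 and 23596 in treated HSF-6(S9)), LIN28A, which blocks the maturation of let-7 miRNAs (35481, 27843 and 21802 in the control and 27899, 38677 and 23345 in treated HSF-6(S9)), and DNMT3B, a DNA methyltransferase (30575, 24011 and 20458 in the control and 25465, 40242 and 21029.7 in treated HSF-6(S9)), overlapped between the groups. Their log2 fold changes were 0.18 ± 0.28, 0.08 ± 0.26 and 0.17 ± 0.28. POU5F1 has no probe set that maps to it alone and was not tested.

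Treated HSF-6(S9) was also set against treated HSF-6(8), a comparison that shares the HSF-6(S9) arrays with the one above. By limma 0 probe sets were called of 54613, with 2003 at an unadjusted p under 0.05, a smallest adjusted p of 0.231, and 0 called with a trended, robust fit. The filtered fit called 1 gene higher (0.00741%), CFC1B, and 0 lower. CFC1B, a near-identical copy of the Nodal co-receptor gene CFC1, read 72.6, 89.5 and 122 on treated HSF-6(S9), 5.90, 12.3 and 6.91 on treated HSF-6(8) and 26.6, 26.4 and 33.9 on untreated HSF-6(8) (2.17 against treated HSF-6(8), filtered limma adjusted p = 0.0173). All 3 groups were dim and did not overlap. Over the 38 called rises the difference between the treated groups ran from -0.71 (LINC00261) to 0.33 (ZNF662), and in 32 it was within 1 SE of 0. Over the 4 lower genes it ran from -1.02 (GRPR) to -0.13 (FLT1). The called genes were chosen on these same HSF-6(S9) arrays, so nothing is read from the sign of these differences. A difference that was not called does not show that the treated sublines were alike.

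**Figure D5:**
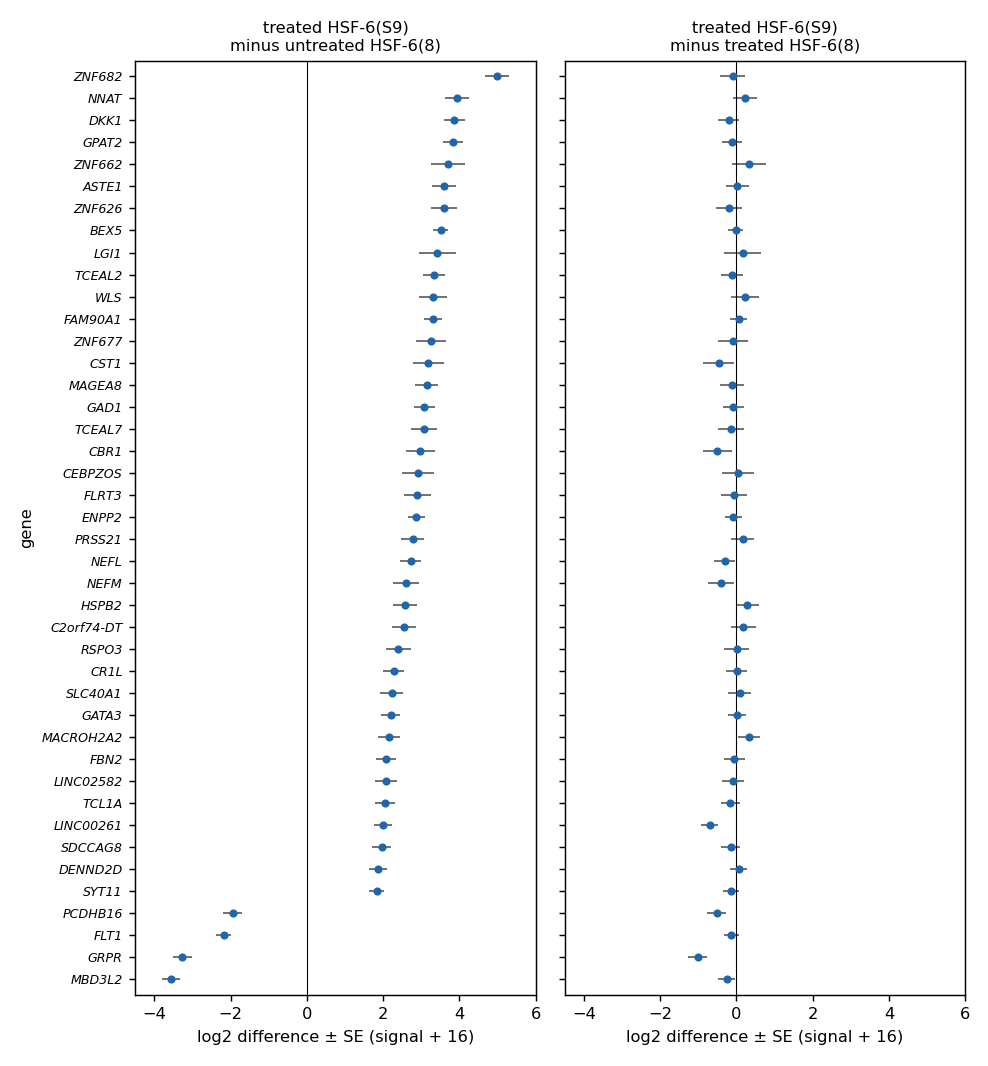
Log2 difference with its standard error for the 42 called genes (signal + 16), for treated HSF-6(S9) against the control on the left and against treated HSF-6(8) on the right. On the left all genes lie at least 1.83 from 0, and on the right the values run from -1.02 to 0.33.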

How the data were processed

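Per the labels' protocols, total RNA went through amplification (MessageAmp Premier) before hybridisation. The values the authors deposited are linear intensity signals of probe sets; the submitters' processing notes name Affymetrix Expression Console and MAS5, with versions not given in the sources used here. On each array the trimmed mean lay between 500.061 and 500.076, so arrays had been scaled. The table held 54675 probe sets, 62 of them controls, and no detection calls. Of the rest, 41091 mapped to 1 gene, 1801 to several and 11721 to none; symbols were updated by Entrez number for 41037.

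All 9 arrays entered 1 limma 3.58.1 fit in R 4.3.3 (lmFit, eBayes) of 3 group means on log2(signal + 16), with 6 residual and 3.45 prior degrees of freedom, two-sided, Benjamini-Hochberg adjusted over 54613 probe sets. A gene was read by its single-gene probe set of highest mean log2 value. The steps were tested on simulated data. Named genes were called genes without overlap (the 15 largest falls, here 4, and the 10 largest rises), up to 4 called members of each of 52 lists, or else values of their largest changes, and 8 fixed genes. Genes called only in the filtered fit, further list members and the called rises outside the lists were named after their values were seen. Genes of the Y chromosome, XIST and TSIX were not named. Members and lists were chosen with earlier results of these data known. Alternatives were other added values, filters, scalings, probe set rules and arrays. 1 further result is not reported here.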

Additional observations from a re-analysis of the deposited data

How the results depend on the processing

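The count of 38 genes called higher became 24 with 1 added, 21 with nothing added, 64 with the median filter, 66 with a trended, robust fit, 65 with probe sets of a gene averaged and 19 with only the 6 arrays compared. The count of 4 lower became 12 with 64 added, 16 with the median filter, 16 with the 75th percentile filter, 16 with the trended, robust fit and 19 with the mean of probe sets. With only the 6 arrays compared 5 were called lower: PCDHB16 was lost, and LCP1 and LEFTY1 were gained (limma adjusted p = 0.0304 and 0.0292). Quantile normalization gave 39 higher and 4 lower, and equal medians 39 and 5. Leaving out 1 array gave 15 to 33 higher and 3 to 7 lower. Chosen after seeing the data, the filtered fit gave 121 and 39, and the first and second arrays only 0 and 0. That filtered fit itself gave 51 to 171 higher and 6 to 70 lower with 1 array left out, and 72 and 26 with the first and second arrays.

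Genes at least 2-fold higher without overlap, 471, were 645 with 1 added, 663 with nothing added, 239 with 64 added and 391 with the median filter. They were 139 with the 75th percentile filter, 330 with the mean of probe sets and 471 to 624 with 1 array left out. Those lower, 266, were 532 with 1 added, 552 with nothing added, 87 with 64 added, 168 with the median filter with or without 1 probe set per gene, 71 with the 75th percentile filter, 177 with the mean of probe sets, 562 with the first and second arrays only (beside 569 higher), and 266 to 545 with 1 array left out. No called gene changed direction under any setting tried. Other added values or fewer arrays could not bring that about, since the groups did not overlap in these genes. Of the 42, 16 were called in all 9 fits that left out 1 array.

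The prime marks were checked as a pairing: same-numbered arrays of both groups had correlations of 0.05, 0.09 and 0.36 over all probe sets after removing group means, and of 0.12, 0.20 and 0.54 over those passing the median filter. On both sets the first control array was closest to the second HSF-6(S9) array, and the labels name no shared culture or day. The marks were not taken as pairs, on the first set of values. With a replicate block, 32 genes were called higher and 4 lower, with 32 of the 42 calls kept. The calls lost were DENND2D, SDCCAG8, TCL1A, LINC02582, FBN2, MACROH2A2, CEBPZOS, CBR1, WLS and LGI1. The number of arrays, and signals near background, limit every value.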
